A study of Chlorocebus aethiops with 12 samples.

Results

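The ZFP36 family was followed across 12 one-colour arrays of COS-1 cells through the probes for its 3 human RefSeq accessions, NM_003407 (ZFP36), NM_004926 (ZFP36L1) and NM_006887 (ZFP36L2). The accessions were the rule of choice, and no measured value entered that rule. The family itself was chosen with earlier results of these data known. All 3 accessions were found among the 32379 on the array, on 4 probes: ZFP36 and ZFP36L2 have 1 probe each and ZFP36L1 has 2. ZFP36 and ZFP36L1 passed the filter on dim probes and were tested among 23756 accessions. ZFP36L2 did not pass.

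COS-1 is an SV40-transformed, fibroblast-like kidney line of the African green monkey. Every culture had been transiently transfected with the glucocorticoid receptor (GR), the transcription factor that glucocorticoids activate, so no group lacks the receptor. Some cultures also received MDFIC, a protein named for its MyoD family inhibitor domain. The 4 groups of 3 biological replicates were GR+MDFIC cells with 100 nM dexamethasone (Dex, a synthetic glucocorticoid) for 6 h, GR+MDFIC cells with vehicle, GR cells with 100 nM Dex for 6 h, and GR cells with vehicle. The comparisons ask what Dex does to each transcript, and whether MDFIC alters it. The probes were designed on human transcripts and read monkey RNA, and the amount of either construct is not given in the labels.

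ZFP36 proteins bind AU-rich elements in the 3′ untranslated regions of short-lived mRNAs through a pair of CCCH zinc fingers. They recruit the CCR4-NOT complex, which removes the poly(A) tail, and the mRNA is then decapped and degraded. ZFP36, also called tristetraprolin, is best known for limiting cytokine mRNAs, and ZFP36L1 and ZFP36L2 act on overlapping targets. The p38 kinase pathway phosphorylates these proteins, which then bind 14-3-3 proteins and lose activity. Glucocorticoids are known to raise ZFP36 mRNA in other cell types.

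Levels are log2 signals from which the array's own 75th percentile was taken away. They serve to compare arrays for 1 probe and not to compare probes. For the dimmer ZFP36L1 probe, described below, the scaled level also differed by slide. The 12 arrays lay on 3 slides. Slide 1 held all 3 GR vehicle replicates and GR Dex replicate 1, and slide 2 held GR Dex replicates 2 and 3 with GR+MDFIC vehicle replicates 1 and 2. Slide 3, read on another scanner, held all 3 GR+MDFIC Dex replicates and GR+MDFIC vehicle replicate 3. The 75th percentile signal averaged 386 there, while slides 2 and 1 averaged 868 and 850. On each array, 70.3% to 75.2% of spots were well above background. The accession entered as the check of the MDFIC construct, NM_199072, averaged 5.09 ± 0.20 and 5.68 ± 0.17 in GR+MDFIC cells with Dex and vehicle, against -3.31 ± 0.13 and -3.23 ± 0.06 in GR cells with Dex and vehicle (log2 level, SD, n = 3). Within GR+MDFIC cells it fell with Dex by 0.59 (limma, adjusted p = 0.0103). Its other probe differed by -0.24 with Dex and -0.17 with vehicle between GR+MDFIC and GR cells. Of the 5 listed epithelial markers all 5 were well above background on all 12 arrays, as were 3 of 5 fibroblast-like, 2 of 4 blood cell and 1 of 2 endothelial ones.

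Dex raised ZFP36L1 in both kinds of cells, and ZFP36L1 was the family member with the clearest response. With Dex in GR+MDFIC cells its brighter probe read 3.28, 3.46 and 3.38, against 2.77, 2.78 and 2.77 with vehicle (log2 level). With Dex in GR cells it read 3.38, 3.25 and 3.34, against 2.89, 2.92 and 2.79 with vehicle. All 6 Dex arrays lay above all 6 vehicle arrays. Within 1 kind of cell, Dex arrays lay above vehicle arrays for 15.9% of all accessions in GR+MDFIC cells and 14.3% in GR cells. In such bulk samples, more cells of a type and more RNA per cell cannot be told apart. The rise was 0.60 ± 0.06 on the log2 scale in GR+MDFIC cells (SE), a fold of 1.51 with a 95% interval of 1.38 to 1.66 (limma, Benjamini-Hochberg adjusted p = 0.000158). In GR cells it was 0.45 ± 0.06 (SE), a fold of 1.37 with a 95% interval of 1.25 to 1.5 (limma, adjusted p = 0.00119). Over all tested accessions, 13.5% were called with Dex in GR+MDFIC cells (6.60% higher) and 7.17% in GR cells (4.40% higher). By size the rise ranked 533 of 1568 called rises in GR+MDFIC cells and 530 of 1046 in GR cells.

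Dex and vehicle arrays of the same kind of cell could be set side by side on slides 3 and 1. On slide 3, the 3 GR+MDFIC Dex arrays averaged 3.37, against 2.77 on the single vehicle array. On slide 1, the single GR Dex array read 3.38, against a mean of 2.87 on the 3 vehicle arrays. With slide as a block the rise was 0.60 in GR+MDFIC cells and 0.51 in GR cells, and it was called in both (limma, adjusted p = 0.0101 and 0.022). In this layout the block estimates are the within-slide differences themselves and not a separate check. They rest on the single vehicle array of slide 3 and the single Dex array of slide 1.

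The second ZFP36L1 probe was far dimmer, with signals of 62.5 to 116 across the 12 arrays against 2640 to 9550 for the first. It read -2.14, -2.13 and -2.21 with Dex in GR+MDFIC cells, against -2.92, -3.60 and -2.37 with vehicle. In GR cells it read -3.15, -3.10 and -3.02 with Dex, against -3.53, -3.46 and -3.65 with vehicle. Dex arrays again lay above vehicle arrays within each kind of cell. This was so for 15.9% of all accessions in GR+MDFIC cells and 14.3% in GR cells. The differences of the second probe were 0.80 ± 0.24 in GR+MDFIC cells and 0.45 ± 0.24 in GR cells (SE). Neither difference passed the test in the fit of all 30177 probes that met the filter (limma, adjusted p = 0.0549 and 0.354). On slide 3 the second probe kept a signal of 74.6 to 89.6 although that slide was dimmer, which lifts its scaled level there, and the part of this in its differences was not tested. Within slides its Dex difference was 0.21 on slide 3 (GR+MDFIC) and 0.40 on slide 1 (GR). The mean of both probes was called in GR+MDFIC cells (log2 difference 0.70, limma, adjusted p = 0.00681) and not in GR cells (0.45, limma, adjusted p = 0.0658).

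ZFP36 moved less. With Dex in GR+MDFIC cells it read -0.60, -0.50 and -0.49, against -0.72, -0.70 and -0.75 with vehicle (log2 level). With Dex in GR cells it read -0.53, -0.67 and -0.59, against -0.91, -0.75 and -0.84 with vehicle. In each kind of cell the Dex and vehicle arrays did not overlap, as was so in the upward direction for 15.9% of all accessions in GR+MDFIC cells and 14.3% in GR cells. ZFP36 rose in GR cells by 0.24 ± 0.06 on the log2 scale (SE), a fold of 1.18 with a 95% interval of 1.08 to 1.29 (limma, adjusted p = 0.0325). In GR+MDFIC cells the difference was 0.19 ± 0.06 (SE), a fold of 1.14 with a 95% interval of 1.05 to 1.25, and it did not pass (limma, adjusted p = 0.0521). The GR call was a narrow one, lost under 13 of 21 alternatives, and over them the log2 difference stayed between 0.19 and 0.31 (limma, adjusted p from 0.0303 to 0.117). It was lost with slide as a block (log2 difference 0.31, limma, adjusted p = 0.0936), without slide 3 (0.24, limma, adjusted p = 0.0768), and without any 1 of GR Dex replicates 1 and 3, GR vehicle replicates 1 and 3, GR+MDFIC Dex replicates 2 and 3 and GR+MDFIC vehicle replicate 1 (0.20 to 0.24).

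**Figure D1:**
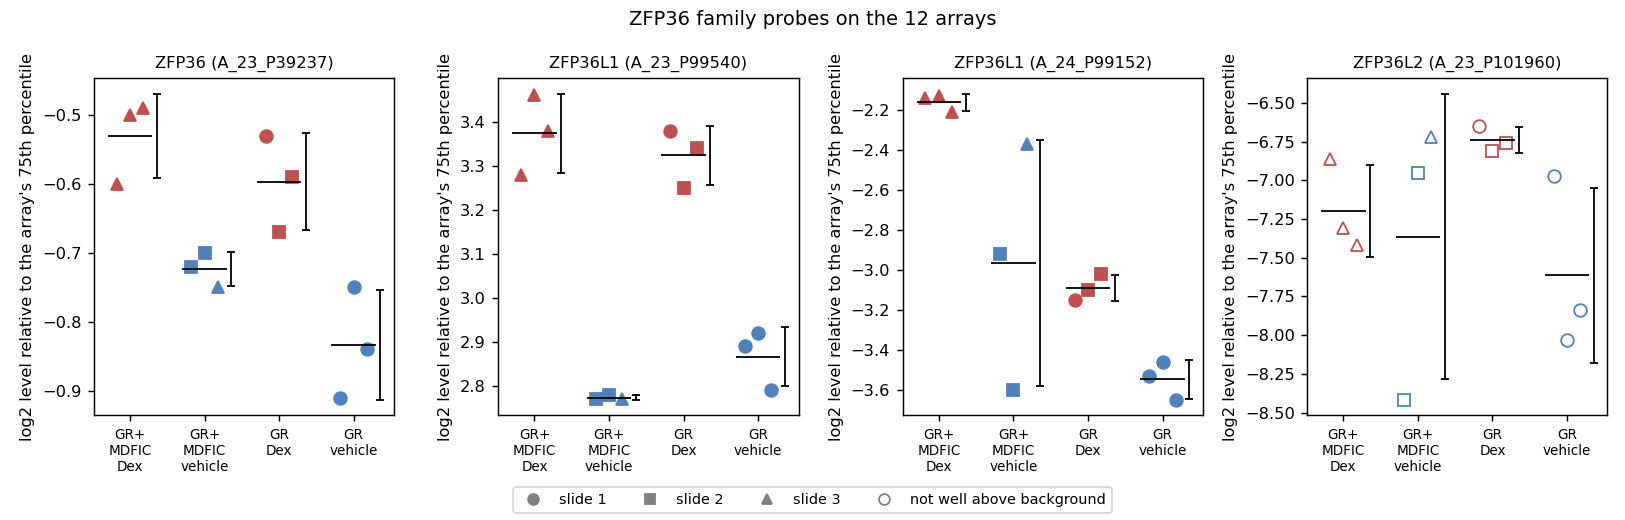
Log2 level relative to the array's 75th percentile (vertical axis) for each family probe on the 12 arrays, by group (GR+MDFIC Dex, GR+MDFIC vehicle, GR Dex, GR vehicle). Marker shape gives the slide, open markers were not well above background, horizontal lines are group means and bars are 1 SD (n = 3). For the brighter ZFP36L1 probe the 6 Dex arrays sit between 3.25 and 3.46 and the 6 vehicle arrays between 2.77 and 2.92.

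ZFP36L2 was not well above background on any of the 12 arrays, so no level and no fold change can be given for it. Its probe gave signals of 2.39 to 8.69. On each array its level, -6.86, -7.31 and -7.42 with Dex and -8.42, -6.95 and -6.72 with vehicle in GR+MDFIC cells, was under the lowest level of any spot called well above background there. The same held in GR cells, at -6.65, -6.81 and -6.76 with Dex and -6.97, -8.03 and -7.84 with vehicle. A human probe that pairs poorly with the monkey transcript and a transcript at a low level cannot be told apart here.

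The test of whether Dex acted differently with MDFIC found no difference for either measured member. For ZFP36L1 the Dex effect in GR+MDFIC cells minus that in GR cells was 0.14 ± 0.08 on the log2 scale (SE, 95% interval -0.04 to 0.33, limma, adjusted p = 0.572). For ZFP36 it was -0.05 ± 0.08 (SE, 95% interval -0.23 to 0.13, limma, adjusted p = 0.85). These intervals leave room for a difference of up to 1.25-fold for ZFP36L1 on its brighter probe, and neither result shows that the effects are equal. The second ZFP36L1 probe gave a less precise difference of 0.35 ± 0.34 (SE, limma over probes, adjusted p = 0.74). Over all accessions 0.0589% were called in this test.

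**Figure D2:**
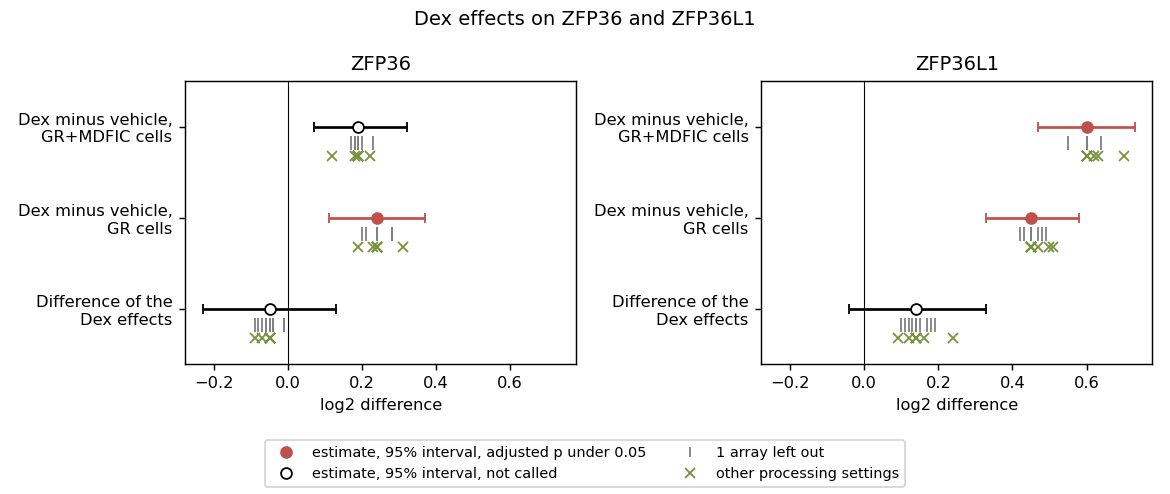
Log2 difference (horizontal axis) of ZFP36 and ZFP36L1 for Dex minus vehicle in GR+MDFIC cells, for Dex minus vehicle in GR cells, and for the first minus the second. Circles with bars are estimates with 95% intervals, grey ticks leave out 1 array and green crosses use another processing setting. ZFP36L1 stays between 0.55 and 0.70 in GR+MDFIC cells and between 0.42 and 0.51 in GR cells, while ZFP36 stays between 0.12 and 0.31 in both.

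No effect of MDFIC on the family was called. With vehicle, ZFP36L1 in GR+MDFIC cells differed from GR cells by -0.09 ± 0.06 and ZFP36 by 0.11 ± 0.06 on the log2 scale (SE, limma, adjusted p = 0.425 and 0.33). With Dex the differences were 0.05 ± 0.06 for ZFP36L1 and 0.07 ± 0.06 for ZFP36 (SE, limma, adjusted p = 0.658 and 0.524). Over all accessions 5.54% were called with Dex and 0.884% with vehicle. With vehicle the 3 GR+MDFIC arrays lay below the 3 GR arrays for ZFP36L1, as did 10.0% of all accessions, and above them for ZFP36, as did 12.1%. The second ZFP36L1 probe gave 0.93 ± 0.24 with Dex and 0.58 ± 0.24 with vehicle (SE, limma, adjusted p = 0.0552 and 0.256), and with slide as a block these were 0.01 and 0.20. No slide holds both arms of either MDFIC effect.

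In order of level, ZFP36L1 was highest in GR+MDFIC Dex (3.37 ± 0.09) and GR Dex (3.32 ± 0.06), then in GR vehicle (2.87 ± 0.07) and lowest in GR+MDFIC vehicle (2.77 ± 0.004, SD, n = 3). ZFP36 ran from GR+MDFIC Dex (-0.53 ± 0.06) and GR Dex (-0.59 ± 0.07) to GR+MDFIC vehicle (-0.72 ± 0.02) and GR vehicle (-0.83 ± 0.08, SD, n = 3). For both genes the 2 Dex groups overlapped and the vehicle groups came last. The adjacent vehicle groups did not overlap but did not differ by the test above. Across the 12 arrays ZFP36 and ZFP36L1 had a Pearson correlation of 0.842, a description only, since both follow the same Dex and vehicle groups.

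The accessions closest to ZFP36L1 across the 12 arrays, among 14581 NM accessions well above background on all of them, were NM_015245, NM_004877 and NM_022910, with Pearson correlations of 0.996, 0.994 and 0.988. NM_004877 changed by 0.97 with Dex in GR+MDFIC cells and 0.70 in GR cells on the log2 scale. The closest to ZFP36 were NM_198993, NM_004182 and NM_003475, with correlations of 0.971, 0.962 and 0.959. NM_198993 changed by 0.40 and 0.41 in the same order of cells. The arrays share their groups and slides, so these likenesses are descriptions.

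The rest of the decay pathway was read through lists of RefSeq accessions entered from general knowledge for named genes. No table linking accessions to symbols was used here, so results are given by accession and list, and the brightest tested accession stands for a gene. Of 16 CCR4-NOT subunits and adaptors, all measured, 0 were called with Dex in GR+MDFIC cells and 0 in GR cells, and their median log2 differences were -0.07 and -0.08. The smallest adjusted p in GR+MDFIC cells was that of NM_005749, with log2 differences of 0.27 there and 0.28 in GR cells (limma, adjusted p = 0.0506 and 0.0625). In GR cells it was that of NM_006763, with 0.05 in GR+MDFIC cells and -0.19 in GR cells (limma, adjusted p = 0.486 and 0.0536). Of 18 other deadenylases, decapping factors and exonucleases 16 were measured. NM_014953 alone was called, falling by 0.19 in GR+MDFIC cells (limma, adjusted p = 0.0346), and 0 were called in GR cells. Of 11 other RNA-binding regulators of unstable mRNAs 9 were measured. NM_015317 fell by 0.26 in GR+MDFIC cells (limma, adjusted p = 0.00989), and 0 were called in GR cells. Over all accessions 13.5% were called with Dex in GR+MDFIC cells (6.94% lower) and 7.17% in GR cells (2.77% lower), so counts of 0 or 1 in lists this short do not set them apart.

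Among 10 kinases, phosphatases and 14-3-3 proteins that act on ZFP36 proteins, NM_004417 was called in both kinds of cells and the other 9 in neither. That is 1 of 10 called higher, where 6.60% of all accessions were called higher in GR+MDFIC cells and 4.40% in GR cells, and nothing is read from the count. NM_004417 read 4.18, 4.24 and 4.28 with Dex in GR+MDFIC cells, against 3.95, 3.89 and 3.8 with vehicle. The GR cells gave 4.29, 4.28 and 4.45 with Dex, against 3.75, 3.75 and 3.82 with vehicle. All Dex arrays lay above all vehicle arrays. Within 1 kind of cell this was so for 15.9% of all accessions in GR+MDFIC cells and 14.3% in GR cells. NM_004417 rose by 0.36 in GR+MDFIC cells and 0.57 in GR cells on the log2 scale (limma, adjusted p = 0.00429 and 0.000385). The other kinases, phosphatases and 14-3-3 proteins had adjusted p of 0.0609 or more in GR+MDFIC cells (limma).

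Of 22 measured transcripts known as AU-rich targets of the family, 14 fell with Dex in GR+MDFIC cells and 11 in GR cells, and the other 8 and 11 were not called. The list was drawn up for 28 genes, among them those of cytokines such as TNF, IL6 and IL1B, of growth and survival regulators such as VEGFA, PIM1 and IER3, and of the LDL receptor. Of these, 26 were on the array and 22 were measured. With Dex in GR+MDFIC cells 14 fell and 0 rose, with a median log2 difference of -0.32 over the 22 against -0.01 over all accessions. In GR cells 11 fell and 0 rose with Dex, with a median of -0.25 against 0.01. The 11 called in GR cells were also called lower in GR+MDFIC cells. Over all accessions 6.94% and 2.77% were called lower. The list was chosen with earlier results of these data known, so this contrast is a description and not a test. With slide as a block the falls numbered 8 in GR+MDFIC cells and 6 in GR cells, and 1.09% and 0.951% of all accessions were called lower. Among the cell type markers, the epithelial accession NM_003466 also fell with Dex, by 0.28 in GR+MDFIC cells and 0.30 in GR cells (limma, adjusted p = 0.00158 and 0.00148). The endothelial accession NM_000552 rose by 0.26 and 0.37 (limma, adjusted p = 0.00865 and 0.00188). The other 10 measured markers were not called, and the part of these moves in the target falls was not tested.

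NM_003897 fell furthest among the targets well above background on all 12 arrays. It read 2.34, 2.32 and 2.29 with Dex in GR+MDFIC cells, against 3.53, 3.61 and 3.39 with vehicle. In GR cells it read 2.49, 2.46 and 2.38 with Dex, against 3.46, 3.50 and 3.37 with vehicle. The lowest vehicle array, at 3.37, lay above the highest Dex array, at 2.49. Within 1 kind of cell, Dex arrays lay below vehicle arrays for 16.2% of all accessions in GR+MDFIC cells and 11.8% in GR cells. The log2 difference was -1.19 in GR+MDFIC cells and -1.0 in GR cells (limma, adjusted p = 3.63e-06 and 1.45e-05).

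NM_002648 read 0.59, 0.62 and 0.61 with Dex in GR+MDFIC cells, against 1.32, 1.25 and 1.26 with vehicle, a log2 difference of -0.67 (limma, adjusted p = 1.65e-05). In GR cells it read 0.73, 0.66 and 0.69 with Dex, against 1.29, 1.16 and 1.27 with vehicle, a difference of -0.55. NM_004073 differed by -0.56 in GR+MDFIC cells and -0.55 in GR cells, and NM_000389 by -0.44 and -0.37. NM_000600 read -3.44, -3.41 and -3.37 with Dex in GR+MDFIC cells, against -3.06, -3.16 and -2.90 with vehicle. The GR arrays read -3.51, -3.64 and -3.48 with Dex, against -3.05, -3.02 and -3.02 with vehicle. The Dex and vehicle arrays of these 4 accessions did not overlap in either kind of cell, as was so in the downward direction for 16.2% of all accessions in GR+MDFIC cells and 11.8% in GR cells.

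The dimmest of the called targets, NM_000576, exceeded background clearly on 1 GR+MDFIC Dex array and on all 3 arrays of every other group. It read -6.18, -5.86 and -5.66 with Dex in GR+MDFIC cells, against -4.88, -4.53 and -4.48 with vehicle. The GR cells read -4.93, -5.58 and -5.36 with Dex, against -4.26, -4.26 and -4.48 with vehicle. The log2 differences of -1.27 and -0.96 were called (limma, adjusted p = 0.00212 and 0.014). The other targets called in both kinds of cells were NM_001025366, NM_000527, NM_002309, NM_002658 and NM_002467, with differences of -0.25 to -0.47 in GR+MDFIC cells and -0.24 to -0.48 in GR cells.

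The 3 targets called in GR+MDFIC cells alone were NM_005252, NM_000633 and NM_002090. Their differences were -0.52, -0.28 and -0.26 in GR+MDFIC cells, and -0.25, -0.25 and -0.02 in GR cells. No target passed the test of the difference between the 2 Dex effects, in which the smallest adjusted p was 0.498 (limma). The 8 measured targets called in neither kind of cell included NM_000594, at -1.21 ± 0.49 in GR+MDFIC cells and 0.18 ± 0.49 in GR cells (log2 difference, SE). Its GR+MDFIC vehicle arrays read -3.87 and -4.35 on slide 2 and -5.56 on slide 3. The Dex arrays, all on slide 3, read -5.61, -4.94 and -6.85, and 2 of these 3 were well above background. The arrays measure transcript levels and not decay. Whether ZFP36L1 or ZFP36 has a part in these falls was not tested.

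**Figure D3:**
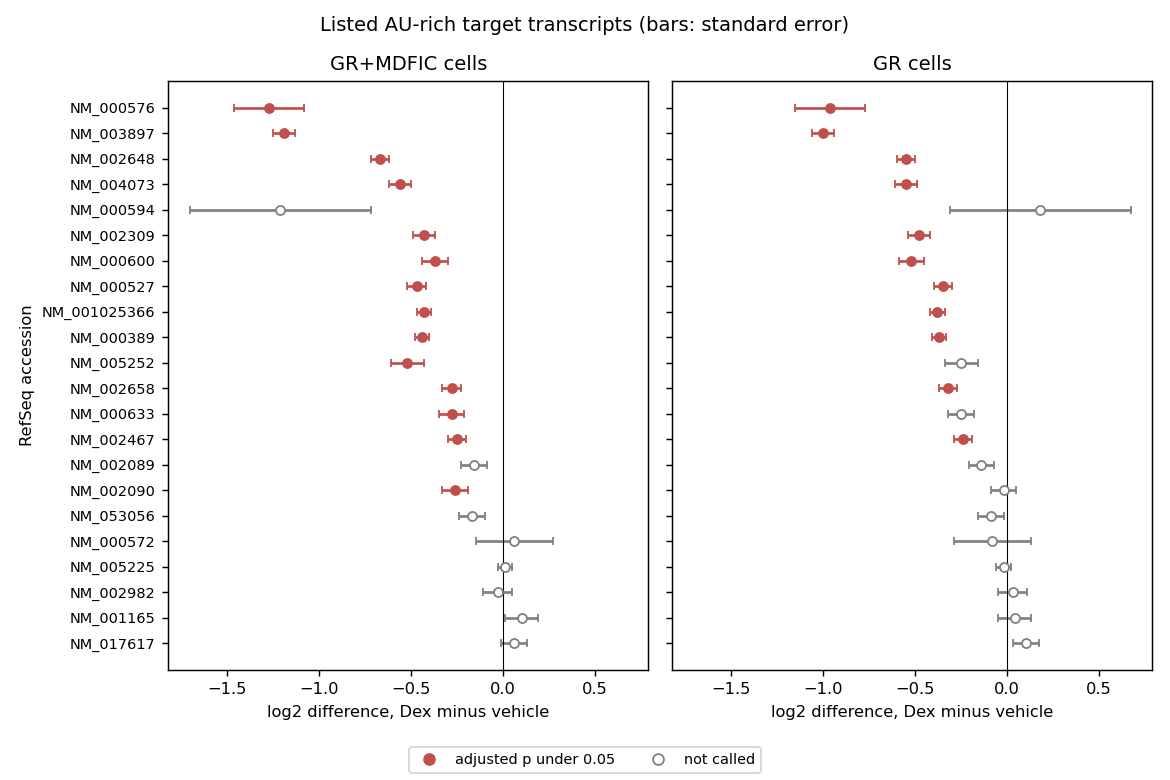
Log2 difference, Dex minus vehicle (horizontal axis), of the 22 measured AU-rich targets by accession, in GR+MDFIC cells (left) and GR cells (right). Bars are standard errors and filled circles have an adjusted p under 0.05. The 14 called in GR+MDFIC cells and the 11 called in GR cells all lie below 0.

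**Figure D4:**
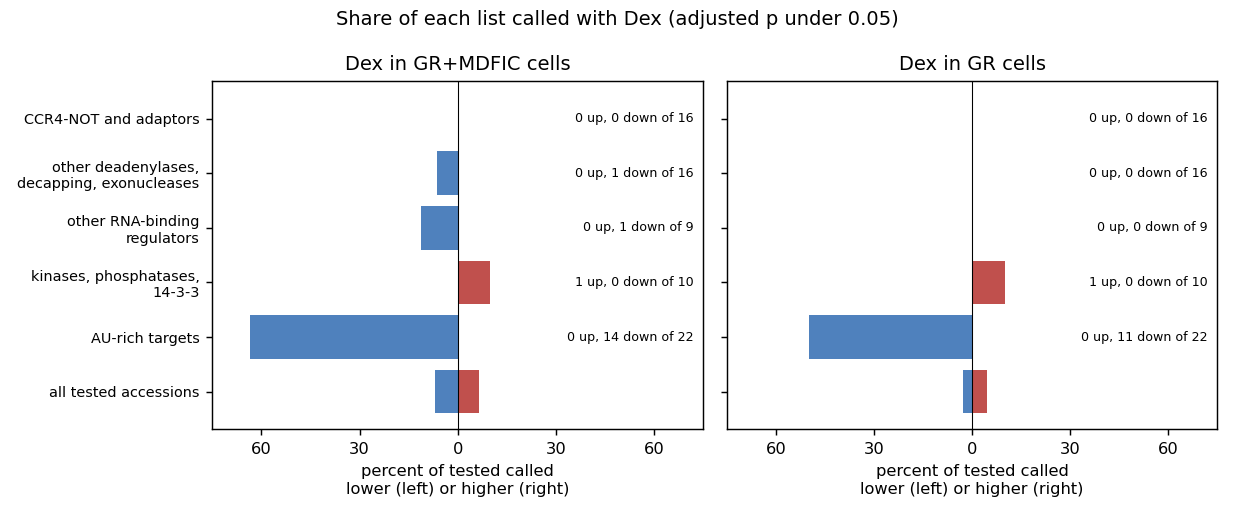
Percent of the measured members of each list (horizontal axis) called higher (red, right) or lower (blue, left) with Dex in GR+MDFIC cells and in GR cells, with the counts printed beside the bars and all tested accessions in the bottom row. Of the AU-rich targets 14 and 11 of 22 were called lower, and 0 of 16 CCR4-NOT subunits and adaptors were called in either. The lists were chosen with earlier results of these data known.

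The arrays responded to the hormone in both kinds of cells. The 3 accessions entered as known glucocorticoid-induced checks, NM_004117, NM_004089 and NM_002616, rose by 1.0, 1.47 and 0.88 on the log2 scale in GR+MDFIC cells and by 0.85, 1.46 and 0.80 in GR cells. The accession entered for GR, NM_001018077, averaged 8.15 ± 0.33 with Dex and 8.55 ± 0.34 with vehicle in GR+MDFIC cells, and 8.25 ± 0.25 with Dex and 8.79 ± 0.11 with vehicle in GR cells (log2 level, SD, n = 3). Its brighter probe was not called with Dex in either kind of cell (limma over accessions, adjusted p = 0.207 and 0.184). Its other probe fell by 0.40 and 0.27 (limma over probes, adjusted p = 0.00529 and 0.0457).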

How the data were processed

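Total RNA of 12 COS-1 cultures was Cy3-labelled and hybridised to one-colour Agilent arrays, per the labels. The deposited intensities are processed signals, made by the authors with Agilent Feature Extraction 12 per the submitters' processing notes (12.0.0.7 or 12.0.3.1 per the file headers), which subtracted the background without scaling between arrays. Other deposited values are flags per spot that, per the file headers, mark spots well above background, saturated or not uniform. The deposited table of the series holds the same signals (largest difference 0).

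After log2 transformation every array was shifted so that its 75th percentile, over 43376 spots that are not controls, was 0. Outlier spots were dropped (34 values in the tested set), none of them on a family probe. A probe stayed in if some group had it well above background on each of its 3 arrays, and the brightest probe stood for each accession, which left 23756 of 32379. One limma 3.58.1 model (R 4.3.3) of the 4 group means gave all 5 contrasts with 8 residual degrees of freedom. A call was an adjusted p under 0.05 (Benjamini-Hochberg, over all accessions, two-sided). The procedure was tested on simulated data with independent noise and no slide effect. The added differences were larger than those of ZFP36 and than that of ZFP36L1 in GR cells. The simulation therefore does not bear on the slides or on differences that small. Figures used matplotlib 3.10.9.

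The members, lists and tests were chosen with earlier results of these data known. Named were all members, for each the 3 accessions most correlated with it, all checks, and list members called in both Dex contrasts. Of the other list members among the 4 smallest adjusted p of their list, only some were named. A few further list members were named after their values were seen. The number of arrays limits the precision. Alternatives were background correction, scaling, filter, probe rule, slide and replicate blocks, samples in the fit and leaving out arrays.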

Additional observations from a re-analysis of the deposited data

How the results depend on the processing

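Under the alternatives that keep the brighter probe or both probes, the Dex differences of ZFP36L1 and ZFP36 stayed positive. The ZFP36 call in GR cells (log2 difference 0.24) was lost with normexp background and quantile scaling (0.19), with no filter on dim probes, with only the groups compared, with the replicate block and without slide 3 (0.24 in each), and with slide as a block (0.31). Without 1 array it ranged from 0.20 to 0.28. Without 1 array ZFP36L1 kept its calls, at 0.55 to 0.64 in GR+MDFIC cells and 0.42 to 0.49 in GR cells. The mean of both ZFP36L1 probes lost the call in GR cells (0.45) and turned the MDFIC difference with vehicle to 0.24. It moved the MDFIC difference with Dex to 0.49 (against 0.05) and the difference of the Dex effects to 0.24 (against 0.14), neither called (limma, adjusted p = 0.0527 and 0.652). The other ZFP36L1 probe, an alternative chosen after seeing the data, gave 0.80 and 0.45 with Dex in GR+MDFIC and GR cells. It gave 0.58 for MDFIC with vehicle and 0.35 for the difference of the Dex effects. With slide as a block as well it gave 0.21, 0.40 and 0.20, and -0.19 for the difference of the Dex effects. The cause was not tested.

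Counts over all accessions moved more. For Dex in GR+MDFIC cells, 3217 calls became 809 with slide as a block and 1388 with only the groups compared, and 1816 to 6336 without 1 array, the highest without GR+MDFIC vehicle replicate 3. For Dex in GR cells, 1704 became 845 with slide as a block and 1081 to 1775 without 1 array. The 14 calls of the difference became 9 (2 of them higher, against 1 of 14) with normexp and quantile scaling, 5 with the replicate block and 2 to 1815 without 1 array, the highest again without GR+MDFIC vehicle replicate 3. For MDFIC with vehicle, 210 became 71 with slide as a block, 115 with the replicate block, 115 with no filter, 45 with only the groups compared and 89 to 580 without 1 array. For MDFIC with Dex, 1317 became 48 with slide as a block, 862 with no filter, 2328 with normexp and quantile scaling, 2294 with only the groups compared and 96 to 3112 without 1 array. The AU-rich target falls, 14 in GR+MDFIC and 11 in GR cells, were 8 and 6 with slide as a block, and 12 to 15 and 9 to 12 without 1 array. Same-numbered replicates did not deviate together (correlations of deviations from the group means from -0.11 to 0.06), and the main model did not pair them. This does not show whether they were made together. The replicate block changed no other call of a family member. Dim signal leaves ZFP36L2 without a measured difference.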
